A study of Rattus norvegicus with 4 samples.

Results

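Interferons are secreted proteins through which cells warn each other of viruses and other threats. Type I interferons bind a receptor with the chain Ifnar1, and type II interferon binds the chains Ifngr1 and Ifngr2. The kinases Jak1, Jak2 and Tyk2, bound to these receptors, then phosphorylate STAT proteins. A complex that holds Stat2 and Irf9 enters the nucleus, binds the interferon-stimulated response element and switches on antiviral effectors and genes of antigen presentation. In most nucleated cells, MHC class I molecules, which pair a heavy chain with B2m, show peptides from inside the cell, whereas class II molecules belong mainly to professional antigen-presenting cells. The rat MHC is called RT1.

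A set of 44 genes of this response, chosen by name, was described in aged rat tendon stem/progenitor cells (rTSPCs). They are those of 7235 named genes whose symbol starts with Ifi, Ifn, Irf, Oas, Isg, Stat (without Stat3), RT1-, Gbp, Bst2, Parp9 or Dtx3l, or stands in a list of further names, of which B2m, Tap1, Tapbp, Jak1, Jak2, Sting1, Lgals3bp and Lgals9 were measured. The rule reads names only, but it was written with earlier results of these data known. It leaves out other interferon-stimulated genes, which are described last. It takes in Isg20l2, Irf2bpl and Irf2bp1 by their names alone, and of these Isg20l2 was called lower and Irf2bpl higher. Of 28 core genes of the pathway looked for by name, 15 were measured. Genes not analysed here include Ifnar2, Tyk2, Irf1, Irf7, Mx1, Mx2, Isg15, Rsad2, Ifit1, Ifit3, Cgas and Tap2.

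RNA was hybridized to 4 Affymetrix arrays, 2 labelled as treated with prim-O-glucosylcimifugin (POG), a chromone of Saposhnikovia root, and 2 labelled as treated with the solvent dimethyl sulfoxide (DMSO). They are called 18M + POG and 18M + DMSO, since the sample titles name rats of 18 months. The study's text gives POG at 20 μM for rTSPCs of aged and of young rats. The study isolated rTSPCs from Achilles tendons of male Sprague-Dawley rats, cultured them in serum-containing medium and subcultured picked colonies, so the cells are an expanded and selected population. Its text describes treatment of aged rTSPCs every other day for a week, and treatment through serial passages for cells of young rats. The labels name treatment until passage 12. The passage, the length of treatment and which of these experiments the arrays come from are thus unsettled, and the age rests on the titles. The labels call the arrays biological replicates without saying whether each came from a different rat. The p-values therefore rest on the spread between these arrays, which may be technical. In limma, the main test below, the spread of each gene is also moderated by a variance prior drawn from all genes tested. Its standard errors ran from 0.191 to 0.271 over the genes of the set. Ifih1 had 0.191, although its SDs were 0.021 in 18M + DMSO and 0 in 18M + POG. A limma p-value is thus not a measure of the gene's own spread alone.

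The values are log2 signals from robust multichip analysis (RMA), in which 1 unit is a doubling. Array medians were 8.55 to 8.68, and the lowest signals were 3.08 to 3.15. Pearson's r over all features was 0.994 and 0.995 within the groups and ran from 0.962 to 0.965 across them.

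Directions are those of the treatment labels, which the column names of the deposited table match. The proliferation gene Mki67 had 15.11 and 15.04 in 18M + DMSO and 10.97 and 10.91 in 18M + POG (log2 fold change -4.14, adjusted p = 5.4e-09 from limma). The cytokine gene Il6 had 6.25 and 6.26 against 8.85 and 9.31 (2.83, adjusted p = 1.3e-07). For both genes this is opposite to the direction given by the study's staining and RT-qPCR of aged rTSPCs, and the titles of the DMSO arrays name both treatments. These 2 genes alone were picked for this check, which does not settle the direction, and with the groups exchanged every sign below would turn, so that 3 of the 44 genes would be higher and 16 lower. Whether the difference in Mki67 has a part in the results below was not tested.

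Of 13 markers of tendon stem/progenitor cells, 10 were measured, with Col1a1 between 19.08 and 19.41 and the tendon transcription factor gene Scx between 5.48 and 6.09. Mcam, Dcn and Eng passed the test as higher under POG and Tnc and Cd44 as lower, and the summed level of the list was 19.94 and 19.93 in 18M + DMSO and 20.17 and 20.14 in 18M + POG. Cd34, a marker of hematopoietic progenitors and of some stromal and endothelial cells, was also higher (log2 fold change 0.63, adjusted p = 0.030 from limma), while Kdr, of endothelial cells, had -0.06 and overlapping arrays. The part of these differences in the results below was not tested. Of 12 leukocyte and macrophage markers, 4 were measured (Cd14, Cd68, Lyz2 and Fcer1g), none passed the test, and none had an unadjusted p under 0.05 from limma. Their summed level was 8.77 and 9.03 in 18M + DMSO and 9.06 and 8.89 in 18M + POG on the log2 scale, so the groups overlapped. Fcer1g lay between 3.38 and 3.56, close to the lowest signal. Markers of dendritic, B and T cells were not among the named features. Fewer cells of a type and less RNA per cell cannot be told apart in these bulk samples.

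The 44 genes were more often higher than lower under POG, and the largest increases were among induced effectors, with the RNA sensor gene Ifih1, the kinase gene Jak2 and B2m beside them. An adjusted p under 0.05 from limma was reached upwards by 16 of the 44 genes and downwards by 3, while 25 missed it. That is 36.4% higher and 6.82% lower, beside 20.4% higher and 17.2% lower (37.6% in either direction) among all 7235 named genes. The median log2 fold change was 0.46 over the 44 genes and 0.04 over all named genes. In 33 of the 44 both 18M + POG arrays lay above both 18M + DMSO arrays, in 5 they lay below and in 6 the groups overlapped. Among all named genes the corresponding shares were 37.2% above and 32.7% below (69.8% apart in either direction). With any 1 array left out, 8 to 10 of the 44 were higher (18.2% to 22.7%, beside 7.23% to 9.12% of all named genes) and 0 were lower by limma (2 or 3 at an unadjusted p under 0.05). All 19 called genes kept their direction, which was fixed in advance because the arrays of the groups did not overlap in any of them. Without each array in turn, the log2 fold change ran from 2.01 to 2.59 for Ifit2, from 1.35 to 1.38 for Ifih1 and from 0.34 to 1.35 for Ifitm1.

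**Figure D1:**
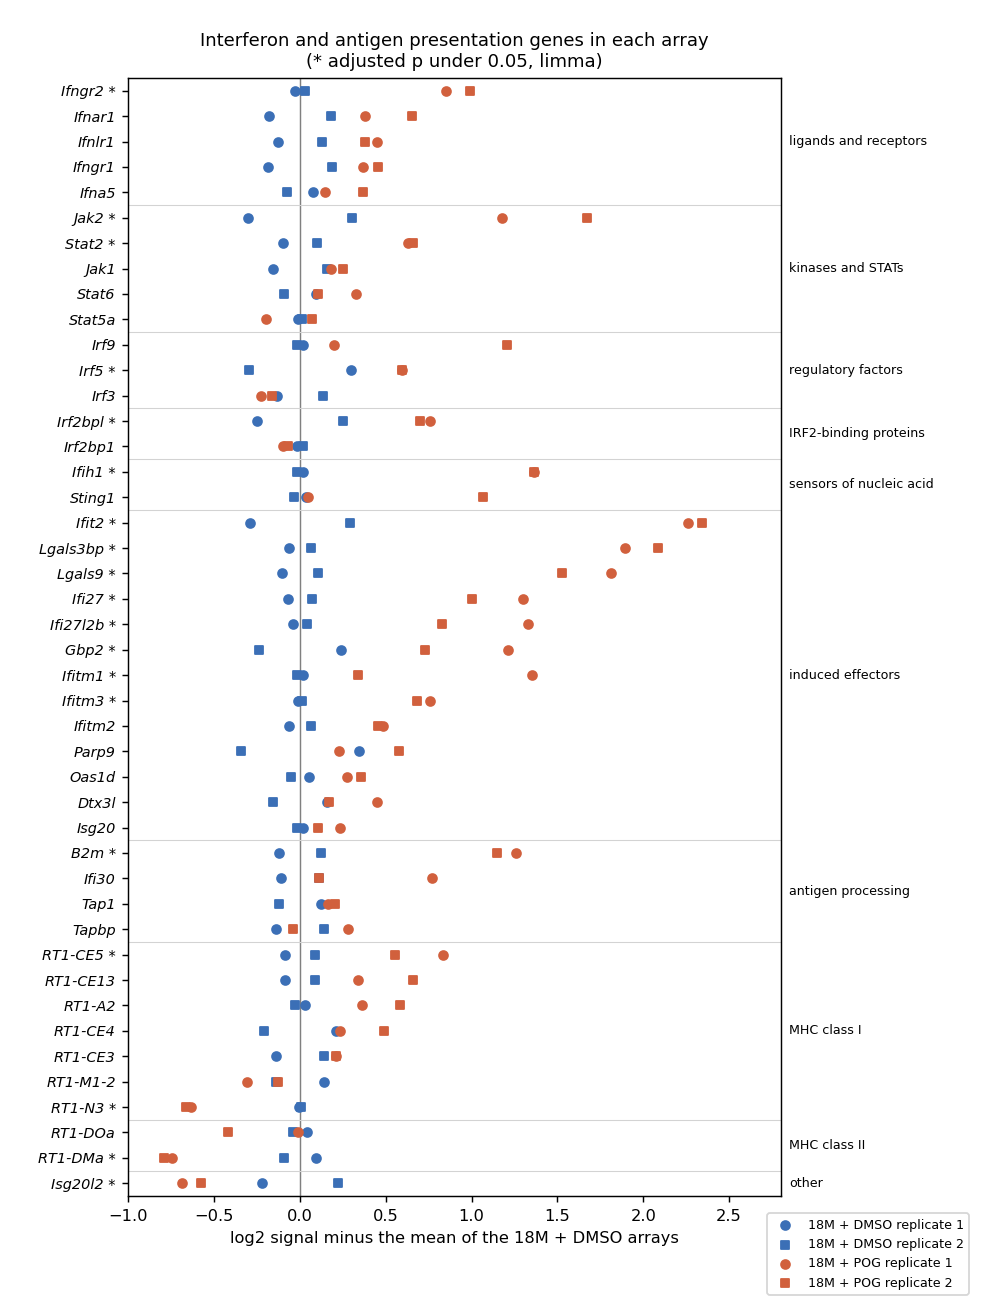
Each of the 44 genes in each of the 4 arrays, as the log2 signal minus the mean of the 18M + DMSO arrays (x axis), grouped by role; blue points are 18M + DMSO, orange points 18M + POG, circles and squares the replicates of a group, and asterisks mark an adjusted p under 0.05 from limma. Both orange points lie to the right of both blue points for 33 genes and to the left for 5.

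The interferon-induced effectors held the largest increases. Of 13 measured, 8 were higher (61.5%, beside 20.4% of all named genes) and the other 5 did not pass. Among 23 measured interferon-stimulated genes outside the naming rule, 21.7% were higher and 17.4% lower. All 13 had a positive log2 fold change, beside 3815 of all 7235 named genes, and the median was 0.85. Ifit2, a member of the tetratricopeptide family that binds RNA and limits translation, had 7.50 and 8.08 in the 18M + DMSO arrays and 10.05 and 10.13 in the 18M + POG arrays. Its log2 fold change of 2.30 (4.92-fold, standard error 0.22, adjusted p = 1.7e-06 from limma) was the largest of the 44 genes. Lgals3bp, a secreted glycoprotein that binds galectins, had 9.33 and 9.46 against 11.29 and 11.48. Its log2 fold change was 1.99 (3.97-fold, standard error 0.20, adjusted p = 2.2e-06). Lgals9, the lectin galectin-9, had 9.29 and 9.50 against 11.21 and 10.92, a log2 fold change of 1.67 (3.18-fold, standard error 0.20, adjusted p = 1.9e-05). For these 3 genes the groups lay further apart than any 2 arrays of one group.

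Ifi27 encodes a small interferon-induced membrane protein, and Ifi27l2b is its neighbour and relative, with no coding gene between them. Ifi27 had 14.27 and 14.41 in 18M + DMSO and 15.64 and 15.34 in 18M + POG (log2 fold change 1.15, adjusted p = 0.00048 from limma). Ifi27l2b had 5.85 and 5.93 against 7.22 and 6.72 (1.08, adjusted p = 0.0013). Both genes were higher in both 18M + POG arrays, and in each the first of these arrays was the higher one. The call of Ifi27l2b was lost without 18M + DMSO replicate 1 and without 18M + POG replicate 1 (adjusted p up to 0.0624).

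Gbp2, an interferon-induced GTPase of the guanylate-binding family, had 6.20 and 5.72 in 18M + DMSO and 7.17 and 6.69 in 18M + POG (log2 fold change 0.97, adjusted p = 0.0045 from limma). Arrays of each group differed by about the same amount, and the call was lost without any 1 of 3 arrays, 18M + DMSO replicate 2 and both of 18M + POG (adjusted p up to 0.13). Ifitm1, Ifitm2 and Ifitm3 encode membrane proteins that hinder the entry of viruses, and the 3 genes are next to each other in the RefSeq gene order. Ifitm3 had 16.79 and 16.81 against 17.56 and 17.48 (0.72, adjusted p = 0.0092), with close replicates, yet its call was lost with any 1 array left out (adjusted p = 0.0619 to 0.0868). Ifitm1 had 5.34 and 5.30 against 6.67 and 5.66 (0.85, adjusted p = 0.024), so most of its difference lay in 1 array. Without 18M + POG replicate 1 its log2 fold change was 0.34 (adjusted p = 0.252), and the call was also lost without either 18M + DMSO array (adjusted p = 0.211 and 0.224). Ifitm2 had 13.38 and 13.51 against 13.93 and 13.90 and did not pass (0.47, adjusted p = 0.068). The Ifitm genes are similar in sequence, so signal shared between their features could not be told apart.

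The remaining effectors were dimmer and did not pass. Parp9 and its neighbour Dtx3l, whose products act together as an ADP-ribosyltransferase and ubiquitin ligase, had log2 fold changes of 0.40 and 0.31. Parp9 overlapped between groups, at 5.57 and 4.88 against 5.45 and 5.80. The exonuclease gene Isg20 (0.17) and Oas1d (0.32), of the oligoadenylate synthetase family, lay between 4.35 and 5.04 in every array. Parp9, Dtx3l, Isg20 and Oas1d were in the dimmest 25% of named genes, as were the called effectors Gbp2, Ifi27l2b and Ifitm1.

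**Figure D2:**
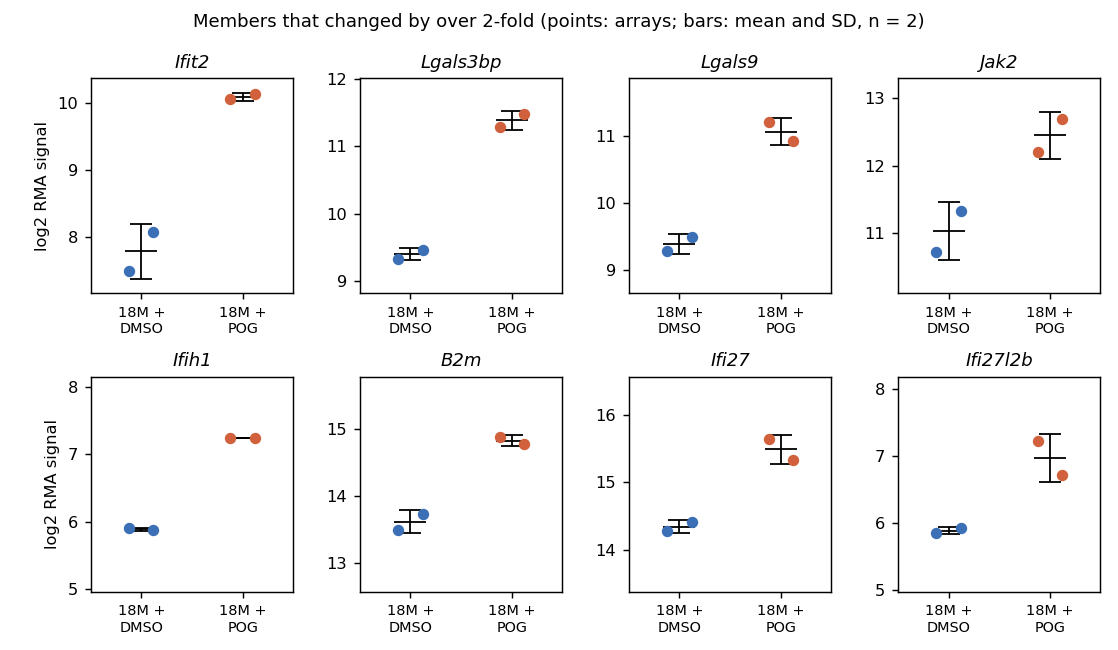
Log2 RMA signal (y axis, each panel spanning the same number of log2 units) in the 2 arrays of each group for the 8 genes that changed by over 2-fold; points are arrays, and bars give the mean and SD (n = 2). The groups do not overlap in any panel, and Ifih1 has the narrowest spread.

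Of the 5 genes of interferons and their receptors, Ifngr2 was higher. It encodes the chain of the type II receptor that carries Jak2 and had 9.19 and 9.25 in 18M + DMSO and 10.07 and 10.21 in 18M + POG, or 0.92 on the log2 scale (standard error 0.19, adjusted p = 0.0020 from limma). The call was lost without 18M + DMSO replicate 1 or 18M + POG replicate 2 (adjusted p = 0.0522 and 0.0503). Its partner Ifngr1, which binds the ligand and carries Jak1, had 11.69 and 12.06 against 12.24 and 12.33 and did not pass (0.41, adjusted p = 0.13). Ifnar1, the neighbour of Ifngr2 in the RefSeq gene order, had 11.86 and 12.22 against 12.42 and 12.69 (0.52, adjusted p = 0.066). Whether Ifngr2 and Ifngr1 differed from each other in their change was not tested. Ifnlr1, of the type III receptor, had 5.36 and 5.62 against 5.94 and 5.87 (0.42, adjusted p = 0.11). Ifna5, the single interferon gene among the 44, lay between 3.64 and 4.08, close to the lowest signal, and no size is read from its change. In all 5 genes both 18M + POG arrays lay above both 18M + DMSO arrays, as they did in 37.2% of all named genes. The share called higher was 20%, near the 20.4% of all named genes.

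Of the 5 genes of kinases and STATs, Jak2 and Stat2 were higher (40%, beside 20.4% of all named genes). Jak2, which also serves receptors of growth hormone and many cytokines, had 10.72 and 11.33 in 18M + DMSO and 12.20 and 12.70 in 18M + POG (log2 fold change 1.43, standard error 0.24, adjusted p = 0.00037 from limma). Replicates differed widely within both groups but did not overlap between them, and its call was lost without 18M + DMSO replicate 1 or without 18M + POG replicate 2 (adjusted p up to 0.07). Stat2, a subunit of the complex formed after type I interferon, had 7.47 and 7.67 against 8.20 and 8.23 (0.65, adjusted p = 0.018), and its call was lost with any 1 array left out (adjusted p = 0.0721 to 0.151). Jak1 had 13.54 and 13.86 against 13.88 and 13.95 (0.22, adjusted p = 0.42). Stat6, which relays interleukin-4 and interleukin-13, also had 0.22 (adjusted p = 0.42), and Stat5a had -0.07 with overlapping arrays.

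Of 3 measured interferon regulatory factors, 1 passed as higher (33.3%, beside 20.4% of all named genes). Irf9, the DNA-binding subunit of the complex with Stat2, had 6.75 and 6.72 in 18M + DMSO and 6.93 and 7.94 in 18M + POG. The 2 arrays of 18M + POG differed by far more than those of 18M + DMSO, and the difference of 0.70 did not pass (adjusted p = 0.054 from limma). It passed in 5 of 15 alternative settings, among them the fit without 18M + POG replicate 1 (1.21, adjusted p = 0.0239). Irf5, a factor of inflammatory signalling, had 6.66 and 6.07 against 6.96 and 6.96 (0.60, adjusted p = 0.047), and this call was lost in 8 of 15 settings. Without 18M + DMSO replicate 2 its log2 fold change was 0.30 (adjusted p = 0.38). Irf3, which switches on interferon genes after sensing of viral nucleic acid, had 7.37 and 7.64 against 7.28 and 7.34 (-0.20, adjusted p = 0.46). Of 2 genes named for binding to Irf2, Irf2bpl had 6.52 and 7.02 against 7.53 and 7.47 (0.73, adjusted p = 0.016) and Irf2bp1 had 6.61 and 6.65 against 6.53 and 6.56 (-0.09, adjusted p = 0.76). The call of Irf2bpl was lost without 18M + DMSO replicate 1, where its log2 fold change was 0.48, and without either 18M + POG array (adjusted p = 0.128 to 0.193).

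Of the 2 measured sensor genes, Ifih1 was higher (50%, beside 20.4% of all named genes). It encodes MDA5, a cytoplasmic sensor of long double-stranded RNA. It had 5.90 and 5.87 in 18M + DMSO and 7.25 in both 18M + POG arrays, a rise of 1.37 on the log2 scale (2.58-fold, standard error 0.19, adjusted p = 6.9e-05 from limma). The spread between its arrays was the smallest among the 8 genes past 2-fold. Its mean signal was in the dimmest 25% of named genes. Sting1, the adaptor of cytoplasmic DNA sensing, had 3.82 and 3.75 against 3.83 and 4.85, so only 1 array of 4 stood above the others, and it did not pass (0.56, adjusted p = 0.12). Without 18M + POG replicate 1 it passed (1.07, adjusted p = 0.0315), and without 18M + POG replicate 2 its log2 fold change was 0.05.

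Of the 4 genes of antigen processing, B2m was higher (25%, beside 20.4% of all named genes). B2m, the light chain shared by all class I molecules, had 13.50 and 13.74 in 18M + DMSO and 14.88 and 14.77 in 18M + POG. The groups lay far apart, by 1.21 on the log2 scale (2.31-fold, standard error 0.20, adjusted p = 0.00028 from limma). The other 3 genes did not pass. Tap1, a subunit of the pump that carries peptides into the endoplasmic reticulum, had 7.18 and 6.93 against 7.22 and 7.26 (0.19, adjusted p = 0.48). Tapbp, or tapasin, which holds class I molecules at that pump, had 6.67 and 6.95 against 7.09 and 6.77, with overlapping arrays (0.12, adjusted p = 0.68). Ifi30, a lysosomal thiol reductase that prepares antigens, had 10.74 and 10.96 against 11.62 and 10.96 (0.44, adjusted p = 0.15). The higher level of Ifi30 was thus present in 1 array.

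Class I heavy chain genes moved both ways, 14.3% higher and 14.3% lower, beside 20.4% and 17.2% of all named genes. Of 7 measured, RT1-CE5 was higher, at 5.62 and 5.79 against 6.54 and 6.26 (log2 fold change 0.70, adjusted p = 0.015 from limma), and RT1-N3 was lower, at 6.65 and 6.66 against 6.02 and 5.99 (-0.65, adjusted p = 0.016). RT1-CE13, RT1-A2, RT1-CE4 and RT1-CE3 had positive log2 fold changes from 0.21 to 0.50 that did not pass, with arrays apart in each. RT1-A2, a classical class I gene, had 7.17 and 7.11 against 7.50 and 7.72 (0.47, adjusted p = 0.072). RT1-M1-2 lay between 3.46 and 3.91, close to the lowest signal, and overlapped. RT1-CE5 and RT1-CE4 are next to each other in the RefSeq gene order, and near-identical copies of class I genes could share signal, so the assignment to single genes is uncertain. Of the 2 class II genes, RT1-DMa, whose product loads peptides onto class II molecules, was lower, at 7.08 and 6.89 against 6.24 and 6.19 (-0.77, adjusted p = 0.0068). RT1-DOa, which restrains that loading, had 4.41 and 4.33 against 4.36 and 3.95 and did not pass (-0.22, adjusted p = 0.44). With any 1 array left out, the calls of RT1-CE5, RT1-N3 and RT1-DMa were all lost, with adjusted p from 0.0501 to 0.145. The third gene that fell was Isg20l2, at 8.20 and 8.64 against 7.73 and 7.84 (-0.64, adjusted p = 0.028). It shares the name of Isg20 and encodes a nucleolar exonuclease of ribosome production, and its call was also lost without each array (adjusted p = 0.057 to 0.247).

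**Figure D3:**
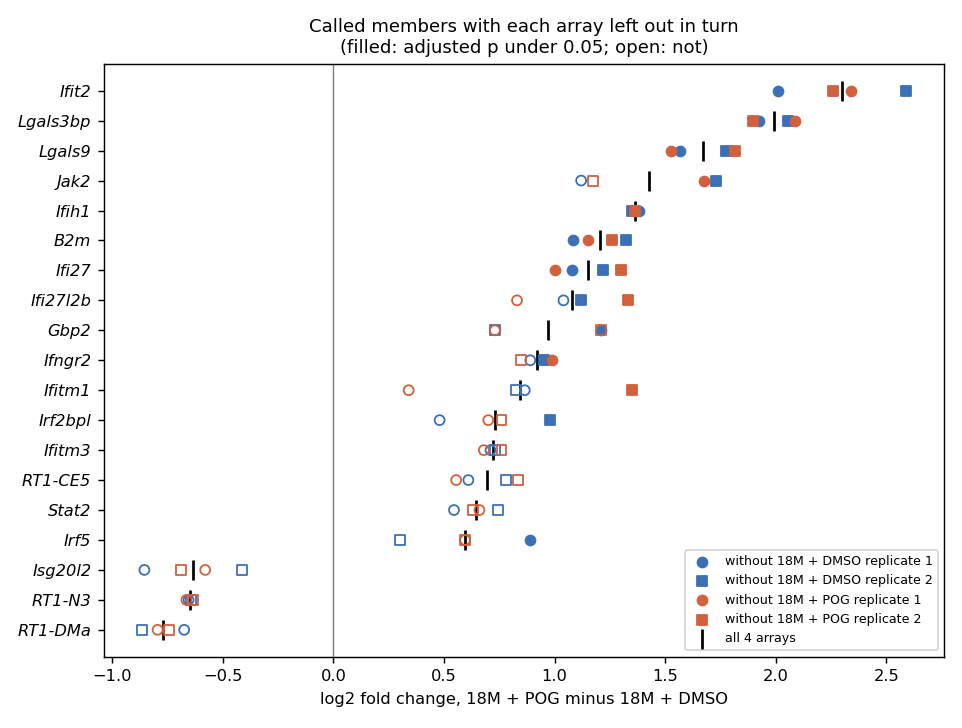
Log2 fold changes (x axis) of the 19 called genes with all 4 arrays (black ticks) and with each array left out (circles and squares; filled where the adjusted p stayed under 0.05). No value crosses 0, which was fixed in advance because the arrays of the groups do not overlap in any of these genes.

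**Figure D4:**
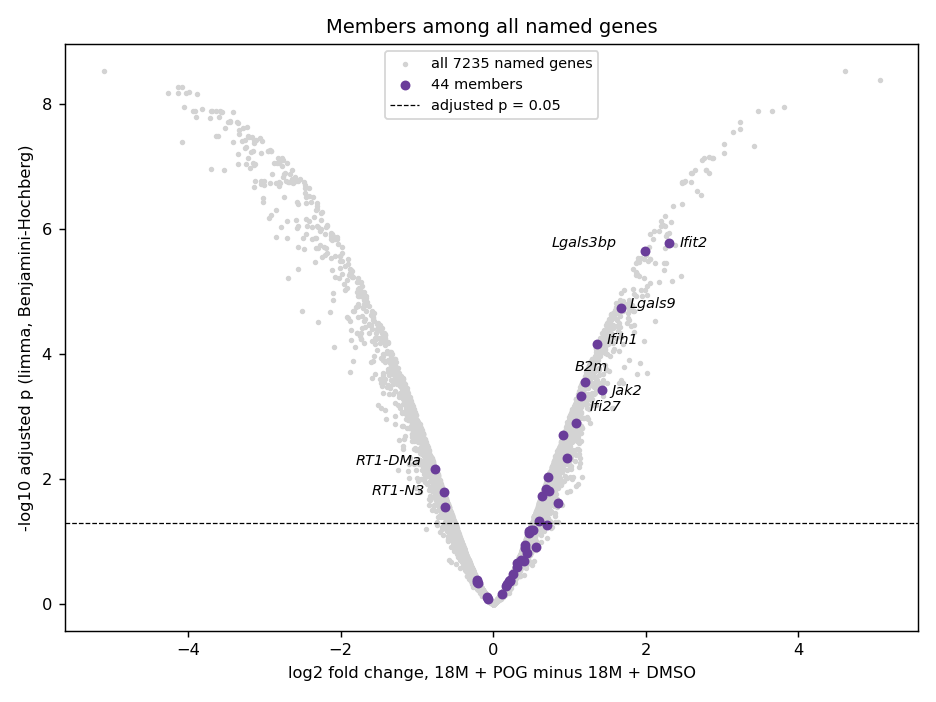
Log2 fold change (x axis) and -log10 adjusted p from limma (y axis) of all 7235 named genes in grey, with the 44 genes in purple. Of the 44, 16 lie above the dashed line on the right and 3 on the left.

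Promoters of these genes were read for the core of the interferon-stimulated response element (GAAA, any 2 bases, GAAA), and for the gamma-activated site bound by STAT dimers, TTCNNNGAA, on both strands. The RefSeq promoter table (build GRCr8) gives 250 bases before and 50 bases from the start of transcription, and it held 40 of the 44 genes, without Ifit2, Ifi27l2b, Ifitm1 and Jak1. The response element core stood in 14 of 40 promoters (35%), beside 3.92% of all 33469 promoters in the table and 3.19% of 6073 promoters of named genes on the array. It stood in 7 of 13 promoters of genes called higher and in 7 of 27 of the others. The gamma-activated site stood in 3 of 40 (7.5%), in Ifitm3, Irf9 and Irf2bp1. It stood in 8.87% of all promoters and in 6.72% of those of named genes on the array. Many of these genes are known for such elements, so the shares describe the list as named. A match describes letters in a window and not a bound site.
The stretches below lie before the start, are written 5′ to 3′ in the direction of the gene, and have the core in capitals. The first 7 come from the genes called higher that hold it, and Tap1 and Tapbp hold it without having passed the test.
Ifih1: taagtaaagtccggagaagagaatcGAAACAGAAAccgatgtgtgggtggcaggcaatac
B2m: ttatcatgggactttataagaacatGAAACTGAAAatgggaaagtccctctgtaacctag
Lgals3bp: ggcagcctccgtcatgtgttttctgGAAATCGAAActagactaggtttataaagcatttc
Gbp2: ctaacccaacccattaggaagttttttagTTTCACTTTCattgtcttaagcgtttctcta
Lgals9: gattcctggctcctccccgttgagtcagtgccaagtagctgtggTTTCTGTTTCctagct
Ifitm3: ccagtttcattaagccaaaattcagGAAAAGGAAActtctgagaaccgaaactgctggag
Ifi27: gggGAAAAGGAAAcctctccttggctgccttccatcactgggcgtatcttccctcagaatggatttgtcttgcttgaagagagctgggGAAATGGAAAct
Tap1: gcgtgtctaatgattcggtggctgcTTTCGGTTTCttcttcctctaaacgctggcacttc
Tapbp: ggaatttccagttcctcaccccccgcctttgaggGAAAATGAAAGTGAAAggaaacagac
In Gbp2, Lgals9 and Tap1 the core lies on the opposite strand and is read in reverse complement. In Tapbp a pair of cores overlap, and Ifi27 holds a pair that lie apart. The core of Ifih1 begins 59 bases before the start, that of Lgals3bp 50, that of Gbp2 31, that of Lgals9 16 and that of Ifitm3 44. In B2m it begins 150 bases before the start and in Tap1 121. The stretches lie on the minus strand at chr3:67683993-67684052 (Ifih1), chr10:104127864-104127923 (Lgals3bp), chr10:64428071-64428130 (Lgals9), chr1:205541768-205541827 (Ifitm3), chr20:4668630-4668689 (Tap1) and chr20:4967878-4967937 (Tapbp). On the plus strand they lie at chr3:129549155-129549214 (B2m), chr2:234005667-234005726 (Gbp2) and chr6:128355140-128355239 (Ifi27). Genes with the core thus ranged from Lgals3bp, at a log2 fold change of 1.99, to RT1-N3, at -0.65.

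**Figure D5:**
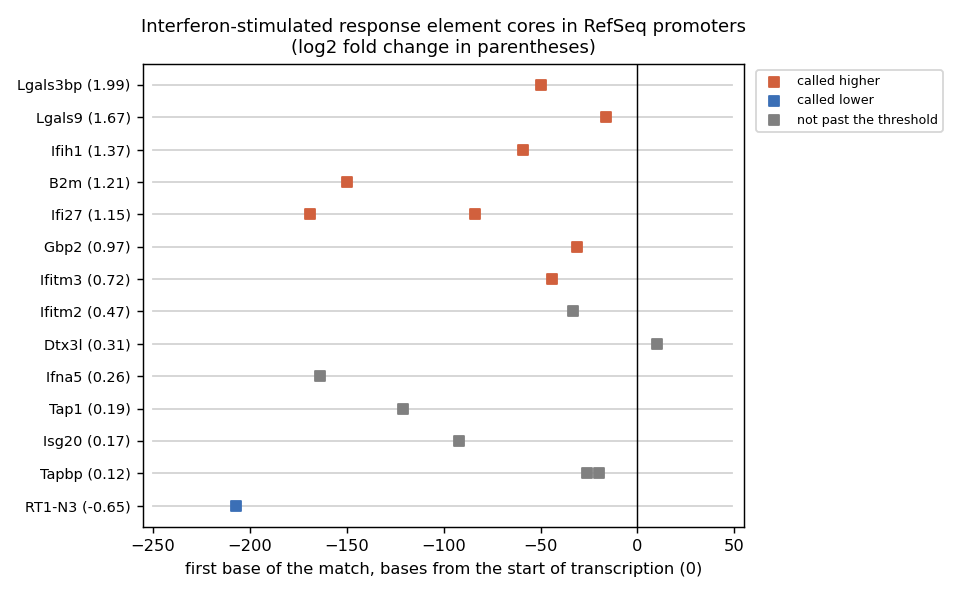
First base of each match to the response element core (squares) along the promoter window, in bases from the start of transcription (x axis), for the 14 genes that hold it, ordered by log2 fold change; orange marks genes called higher, blue called lower and grey not past the threshold. Matches of the genes called higher begin between 169 and 16 bases before the start.

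Other genes of the pathway, taken from lists written from general knowledge, held both higher and lower genes, as all named genes did. Of 25 regulators and sensors outside the naming rule, 13 were measured, of which 4 were higher and 2 lower (30.8% and 15.4%, beside 20.4% and 17.2% of all named genes), with a median log2 fold change of 0.24. Nmi, an interferon-induced partner of STAT proteins, had 6.58 and 6.28 in 18M + DMSO and 7.53 and 7.44 in 18M + POG (1.06, adjusted p = 0.00092 from limma), and Stat3 had 12.13 and 12.04 against 13.28 and 12.96 (1.04, adjusted p = 0.0011). Usp18, the protease that removes Isg15 from proteins and dampens type I receptor signalling, had 7.0 and 7.72 against 6.08 and 5.90 (-1.37, adjusted p = 0.00043). The feedback inhibitor genes Socs1 and Socs3 had log2 fold changes of -0.13 and 0.01 with overlapping arrays. Usp18, itself induced by interferon, and Ifit2 thus lay on opposite sides of 0.

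Of 45 further interferon-stimulated genes, 23 were measured, of which 5 were higher and 4 lower, with a median log2 fold change of 0.08. Casp4, the protease that senses bacterial lipopolysaccharide inside cells, had 9.69 and 10.02 in 18M + DMSO and 12.06 and 12.31 in 18M + POG (2.33, adjusted p = 7.6e-07 from limma), and the inflammasome protease gene Casp1 had 5.36 and 5.56 against 6.66 and 6.30 (1.02, adjusted p = 0.0015). The monocyte chemokine genes Ccl2 (-1.40, adjusted p = 0.00033) and Ccl7 (-1.15, adjusted p = 0.0011) were lower, as were Plscr1 (-0.64) and Samhd1 (-0.53), a nucleotide-cleaving antiviral enzyme. The kinase gene Eif2ak2 (0.08) and the editing enzyme gene Adar (-0.12) did not pass. Counts of this list, 21.7% higher and 17.4% lower, were near those of all named genes.

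Of 22 further genes of antigen processing, 11 were measured, 4 were higher (36.4%, beside 20.4% of all named genes) and the other 7 did not pass. The median log2 fold change was 0.34. Fcgrt, a class I-like receptor of immunoglobulin G that pairs with B2m, had 10.17 and 10.31 in 18M + DMSO and 11.69 and 11.63 in 18M + POG (1.42, adjusted p = 5.3e-05 from limma). Cd1d1, a class I-like molecule that presents lipids and also pairs with B2m, had 5.69 and 6.07 against 6.82 and 6.85 (0.96, adjusted p = 0.0023). The lysosomal protease gene Lgmn (1.19) and the proteasome activator gene Psme2 (0.56) were also higher. Hfe, a further partner of B2m, lay between 3.53 and 3.92, close to the lowest signal, and overlapped between the groups.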

How the data were processed

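The authors processed the arrays by RMA with Affymetrix default settings and global scaling and deposited log2 signals, 1 column per array; the software version was not given in the sources used here. The series' value table matched it exactly in 10141 of 10141 features. GEO's platform annotation gave 1 symbol to 7240 features and left 2901 unnamed here. For each of the 7235 named genes the brightest feature on average was taken. No filter was applied, and the number of arrays limits the precision. Groups followed the treatment labels. The groups were compared with limma 3.58.1 under R 4.3.3 (group as sole term, Benjamini-Hochberg over 7235 genes, threshold 0.05), after a check on simulated arrays. Genes described are all members past the threshold, core members of the pathway and the markers named. The members and lists were chosen with earlier results of these data known. Alternatives were the value table, quantile normalization, median subtraction, removal of the dimmest 25%, feature averaging, all features, a replicate block, each array left out, a variance trend, a 1.5-fold limit and the methods' test. Promoters were searched with Python 3.11.15, and figures drawn with matplotlib 3.10.9.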

Additional observations from a re-analysis of the deposited data

How the results depend on the processing

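Over 15 alternative settings, 551 of the values of single genes kept their direction and side of the threshold, 72 lost the call, 16 gained it and 3 changed sign. These counts overstate how firm the results are. The series' value table was identical, so nothing could change there. The 1.5-fold limit, replicate block, variance trend and methods' test keep the same fold changes, so no direction could turn. Of the 44 genes, 25 had no call to lose. The changes of sign were in genes that had not passed: with any 1 array left out, the log2 fold change of Stat5a ranged from -0.2 to 0.07 and that of Tapbp from -0.04 to 0.28. Leaving out 1 array gave 8 to 10 genes of the 44 higher and 0 to 0 lower by limma (14 to 18 higher and 2 to 3 lower at an unadjusted p under 0.05), and 523 to 660 higher and 592 to 619 lower among all named genes. The methods' test without adjustment, at a change over 1.5-fold, gave 9 higher and 2 lower of the 44, and 786 higher and 784 lower of all named genes. After Benjamini-Hochberg it gave 0 higher and 0 lower, both of the 44 and of all named genes, with 11 and 2 of the 44 at an unadjusted p under 0.05. With the replicate number as a block, 19 of the 44 were higher and 3 lower (43.2% and 6.82%, beside 22.1% and 18.8% of all named genes). Replicates of the same number deviated together only weakly (correlation 0.145 across genes), and nothing in the labels ties them, so they were not taken as pairs. Removing the dimmest 25% of named genes took out 18 of the 44, those with a mean log2 signal up to 6.59. Of the 26 left, 12 were higher and 2 lower (46.2% and 7.69%, beside 23.8% and 20.1% of 5426 named genes), with Irf9 gained. The called genes Gbp2, Ifih1, Ifi27l2b, Ifitm1, RT1-CE5 and RT1-N3 are among those taken out. Without detection calls in the files, low signals were not told from background.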
